A study of Mus musculus with 4 samples.

Results

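The tripartite motif (TRIM) family was followed in the amygdala, taken whole, from 10-week-old male C57BL/6J mice. Members were taken as every gene whose name on the array is Trim, a number and at most 1 letter, and that at least 3 of 4 arrays of 1 group or more read well above background. Of 52 such symbols on the array, 42 met the rule, among 19108 genes tested. The mice lacked P2X7R, a channel that ATP opens (knockout, KO), or were wild type (WT), and received 1 intraperitoneal injection. The 4 groups were KO with lipopolysaccharide (LPS, an endotoxin of bacterial walls), KO with 0.9% saline, WT with LPS and WT with saline, with 4 mice and 4 one-colour Agilent arrays in each. LPS is labelled as 7.5 µg per mouse and as 250 µg/kg, and tissue was taken after 6 h. The labels do not say how the P2X7R -/- line was made, whether its controls were littermates, or which array came from which mouse, so p-values measure the spread between these arrays.

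TRIM proteins carry a RING finger, 1 or more B-boxes and a coiled coil, and most act as ubiquitin ligases whose C-terminal domain picks the target. Many members with a C-terminal SPRY domain are induced by interferon and act in antiviral defence or tune the signals of cytosolic RNA and DNA sensors. Others bind chromatin (the TIF1 group), work at axons and synapses, or sit in the sarcomere of striated muscle.

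Levels below are log2 intensities relative to the 75th percentile of the same array, and a difference is between group means of 4 arrays on that log2 scale, with its standard error from limma. A gene passed the test when its limma p-value, Benjamini-Hochberg adjusted over all 19108 genes, was under 0.05. Each gene is read by its brightest kept probe, and levels of different probes are not compared.

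In KO amygdala 8 members passed the test after LPS, and the results turn on them, so the 60-base probes that read them are printed here as the array's design gives them, with positions in mm9. The Trim30 probe lies within chr7:111560170-111560747, a range wider than the probe, and the Trim34 probe at chr7:111410060-111410119, the Trim12 probe at chr7:111448499-111448558 and the Trim21 probe at chr7:109706597-109706656. The Trim25 probe lies at chr11:88881205-88881264, the Trim16 probe at chr11:62654736-62654795, the Trim47 probe at chr11:115967127-115967186 and the Trim56 probe at chr5:137587443-137587502. Exon and intron assignments in that build were not used here.
Trim30: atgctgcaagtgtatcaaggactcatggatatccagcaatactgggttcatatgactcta
Trim34: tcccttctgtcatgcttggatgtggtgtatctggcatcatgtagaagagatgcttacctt
Trim12: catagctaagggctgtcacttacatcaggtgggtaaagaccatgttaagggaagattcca
Trim21: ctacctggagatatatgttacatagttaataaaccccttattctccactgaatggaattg
Trim25: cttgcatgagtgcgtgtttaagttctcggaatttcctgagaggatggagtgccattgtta
Trim16: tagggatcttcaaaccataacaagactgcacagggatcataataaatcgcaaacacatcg
Trim47: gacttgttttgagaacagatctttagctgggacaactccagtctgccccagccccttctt
Trim56: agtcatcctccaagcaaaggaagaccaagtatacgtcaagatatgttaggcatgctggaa
By accession, RefSeq names the genes of the first 3 probes Trim30a, Trim34a and Trim12a. Each has related neighbours on chromosome 7 (Trim30b, Trim30c and Trim30d, Trim34b, Trim12c and Trim5). The probes were not compared with the sequences of these neighbours, so how far each probe reads them is uncertain.

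Promoter sequence was available for 7 of these 8 members and 31 of all 42 (RefSeq, GRCm38.p6, 250 bases before to 50 after each annotated start, 43 windows in all, since some genes have several starts). The windows were searched on both strands for the core of the interferon-stimulated response element (ISRE), GAAANNGAAA, and of the gamma-activated site (GAS), TTCNNNGAA. An ISRE core was found in 4 of the 7 members that passed the test, Trim30, Trim34, Trim12 and Trim21, and in 2 of the other 24, Trim2 and Trim26. Over all 32851 windows of the table, 3.44% hold one. A GAS core was found in none of the 7 and in 2 of the other 24, Trim45 and Trim46, against 8.3% of all windows. The windows of the 4 members follow on each gene's own strand, with the ISRE match in capitals: Trim30a at chr7:104465144-104465443, minus strand, Trim34a at chr7:104244207-104244506, plus strand, Trim12a at chr7:104315446-104315745, minus strand, and Trim21 at chr7:102565433-102565732, minus strand.
Trim30a: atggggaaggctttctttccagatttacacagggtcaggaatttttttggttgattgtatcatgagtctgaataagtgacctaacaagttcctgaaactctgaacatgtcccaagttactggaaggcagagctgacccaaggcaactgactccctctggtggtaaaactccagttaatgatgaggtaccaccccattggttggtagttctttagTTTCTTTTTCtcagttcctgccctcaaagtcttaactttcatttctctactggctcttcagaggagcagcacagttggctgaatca
Trim34a: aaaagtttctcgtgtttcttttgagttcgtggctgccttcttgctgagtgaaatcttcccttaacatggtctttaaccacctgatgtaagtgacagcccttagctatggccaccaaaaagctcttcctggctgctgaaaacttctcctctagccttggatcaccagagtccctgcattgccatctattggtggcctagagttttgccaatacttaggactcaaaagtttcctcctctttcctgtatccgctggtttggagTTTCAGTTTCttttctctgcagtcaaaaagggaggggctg
Trim12a: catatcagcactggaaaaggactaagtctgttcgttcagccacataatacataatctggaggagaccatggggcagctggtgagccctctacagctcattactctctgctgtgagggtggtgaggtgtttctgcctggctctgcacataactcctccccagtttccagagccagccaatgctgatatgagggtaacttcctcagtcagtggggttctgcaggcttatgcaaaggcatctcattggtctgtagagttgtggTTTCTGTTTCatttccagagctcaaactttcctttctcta
Trim21: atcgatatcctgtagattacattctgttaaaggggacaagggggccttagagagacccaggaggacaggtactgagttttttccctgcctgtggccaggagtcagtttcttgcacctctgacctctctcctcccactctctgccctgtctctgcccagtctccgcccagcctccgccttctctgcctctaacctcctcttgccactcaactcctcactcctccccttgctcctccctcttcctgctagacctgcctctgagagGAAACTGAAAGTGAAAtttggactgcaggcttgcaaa
In Trim30a, Trim34a and Trim12a the core reads on the opposite strand, and Trim21 holds 2 overlapping cores in the gene's own direction. The match begins 36 bases before the first annotated start of Trim30a, and 10 bases after that of Trim34a, 10 after that of Trim12a and 13 after that of Trim21. Trim30a has a second annotated start, with a match 2 bases after it. A match is a run of letters and not a tested binding site.

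**Figure D1:**
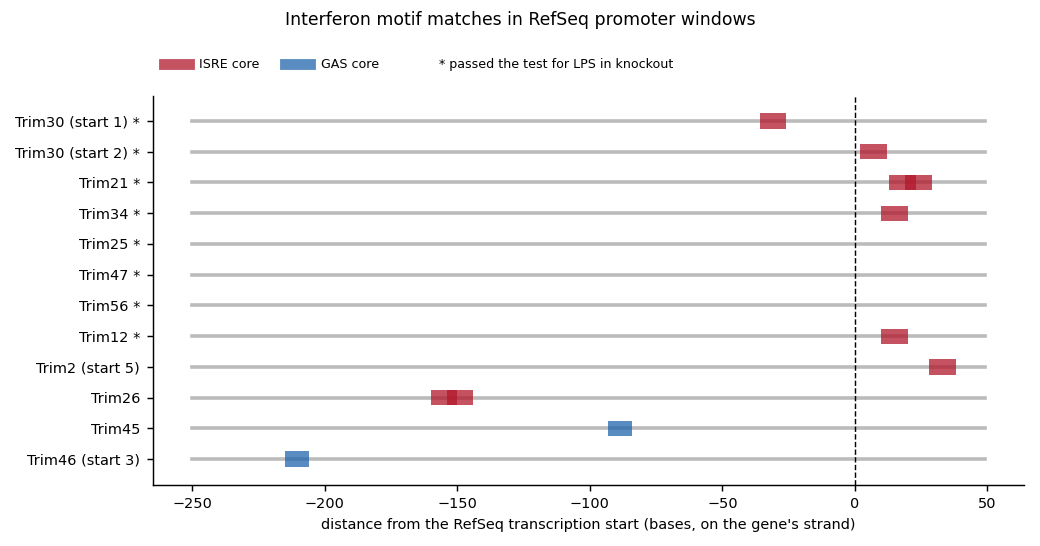
Positions of ISRE and GAS core matches (coloured boxes) in promoter windows of the TRIM genes that passed the test for LPS in KO (marked *) and of the other members with a match, in bases from the annotated start. The ISRE matches of Trim30, Trim21, Trim34 and Trim12 lie between −36 and 29 bases of their starts, and those of Trim26 lie farther upstream.

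Several arrays stood apart. WT saline arrays 1 and 2, both on slide 1, go against their label for interferon-linked genes: Isg15 read 0.42 to 1.56 on WT LPS arrays, against 0.66 and 1.04 on WT saline arrays 1 and 2 and −2.78 and −2.65 on WT saline arrays 3 and 4. WT saline arrays 3 and 4, which remain once those are left out, stood apart in the hippocampal markers. These averaged 0.014 and 0.12 on them, against −1.44 to −1.04 on the other WT arrays. The microglial markers averaged 0.20 and 0.11 on WT saline arrays 3 and 4, within the KO saline range of −0.16 to 0.54. On WT saline arrays 1 and 2 they averaged −0.94 and −1.07, within the WT LPS range of −1.19 to −0.79, and KO LPS arrays ran from −0.84 to −0.53. KO saline array 1 differed from the other arrays of its group by a median of 0.62 log2 units per gene, where the 15 other arrays lay between 0.16 and 0.31. KO arrays shared slides 3 and 4 and 1 scan session, and WT arrays slides 1 and 2 and another session, so genotype, slide and session cannot be told apart. P2rx7, the targeted gene, has 2 kept probes. One probe ran from −1.69 to −0.80 on KO arrays and from −0.15 to 0.90 on WT arrays, and the other overlapped between genotypes. The position of these probes relative to the deletion is not given. Between 58.1% and 71.9% of spots were well above background per array, and no TRIM spot was saturated. The 6 measured amygdala markers averaged 1.23 to 1.55 on KO arrays and 1.15 to 1.70 on WT arrays.

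After LPS in KO amygdala, 8 of 42 TRIM members rose, where 2.53% of all genes did, and none fell, where 1.14% of all genes did. An unadjusted p under 0.05 was seen for 12 of 42 members and for 2781 of 19108 genes. The risers were mostly interferon-linked: 6 of the 8 measured members of that group (Trim30, Trim21, Trim34, Trim25, Trim56 and Trim12), with a median difference of 1.34 over the group, against −0.05 over all 42 members and −0.09 over all genes. The other 2, Trim16 and Trim47, belong to none of the role groups.

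Trim30 encodes a ubiquitin ligase that, in mouse macrophages, restrains Toll-like receptor signalling. It read 0.09, 0.00038, 0.16 and 0.017 on KO LPS arrays, against −3.93, −3.34, −3.64 and −3.48 on KO saline arrays. The groups were wide apart, and the KO LPS arrays lay close together. The difference was 3.66 ± 0.52, a 12.7-fold higher intensity (adjusted p = 0.0019). Its second probe gave 3.69 (adjusted p = 0.0028 over all kept probes).

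Trim21 encodes a cytosolic antibody receptor that directs antibody-coated viruses to degradation. It read −3.04, −3.01, −2.83 and −2.93 on KO LPS arrays, against −4.45, −4.56, −4.32 and −5.32 on KO saline arrays, where 3 of 4 spots were well above background. The groups did not overlap and differed by 1.71 ± 0.34 (adjusted p = 0.0099). Trim34, a SPRY member beside Trim30 and Trim12, read −2.10, −2.45, −2.62 and −3.43 on KO LPS arrays, against −5.05, −4.38, −3.87 and −3.85 on KO saline arrays. All KO LPS arrays were higher, by 1.64 ± 0.42 on average (adjusted p = 0.040). Its other kept probe, well above background on 1 KO LPS array and on no KO saline array, gave 1.07 and did not pass (adjusted p = 0.24).

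Trim12, a rodent relative of the primate antiretroviral gene TRIM5, read 0.82, 0.87, 0.94 and 1.10 on KO LPS arrays, against 0.36, −0.60, −0.38 and −0.27 on KO saline arrays. KO saline array 1 was the nearest to the LPS arrays, without reaching them, and the difference was 1.15 ± 0.26 (adjusted p = 0.018). Trim25 encodes the ligase that attaches ubiquitin chains to the RNA sensor RIG-I. It read 0.60, 0.75, 0.95 and 0.57 on KO LPS arrays, against −1.15, −0.73, −0.66 and −0.61 on KO saline arrays, and differed by 1.50 ± 0.28 (adjusted p = 0.0060). Trim56, a ligase linked to the DNA-sensing STING pathway, read −1.41, −1.29, −1.26 and −1.59 on KO LPS arrays, against −2.86, −2.52, −2.37 and −2.53 on KO saline arrays. Neither gene's groups overlapped, and Trim56 differed by 1.18 ± 0.26 (adjusted p = 0.017).

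Trim16, a member without a RING finger, read −1.26, −1.10, −1.25 and −1.12 on KO LPS arrays, against −2.24, −2.65, −2.81 and −2.59 on KO saline arrays. The difference was 1.39 ± 0.25 (adjusted p = 0.0052), with the KO LPS arrays above all KO saline arrays. Trim47, a RING ligase, read 1.22, 1.57, 1.12 and 1.64 on KO LPS arrays, against 0.74, −0.25, −0.13 and −0.21 on KO saline arrays. It differed by 1.35 ± 0.34 (adjusted p = 0.037), and KO saline array 1 stood well above its group. The further kept probes of Trim12, Trim16 and Trim25 also passed the test upwards, with differences of 1.77 for Trim12, 1.82 and 1.77 for Trim16, and 2.38 for Trim25. On KO saline arrays, both further Trim16 probes and that of Trim25 were nowhere well above background. Against the dimmest signal still well above background, they were at least 2.03-fold and 1.66-fold (Trim16) and 3.65-fold (Trim25) higher on KO LPS arrays.

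**Figure D2:**
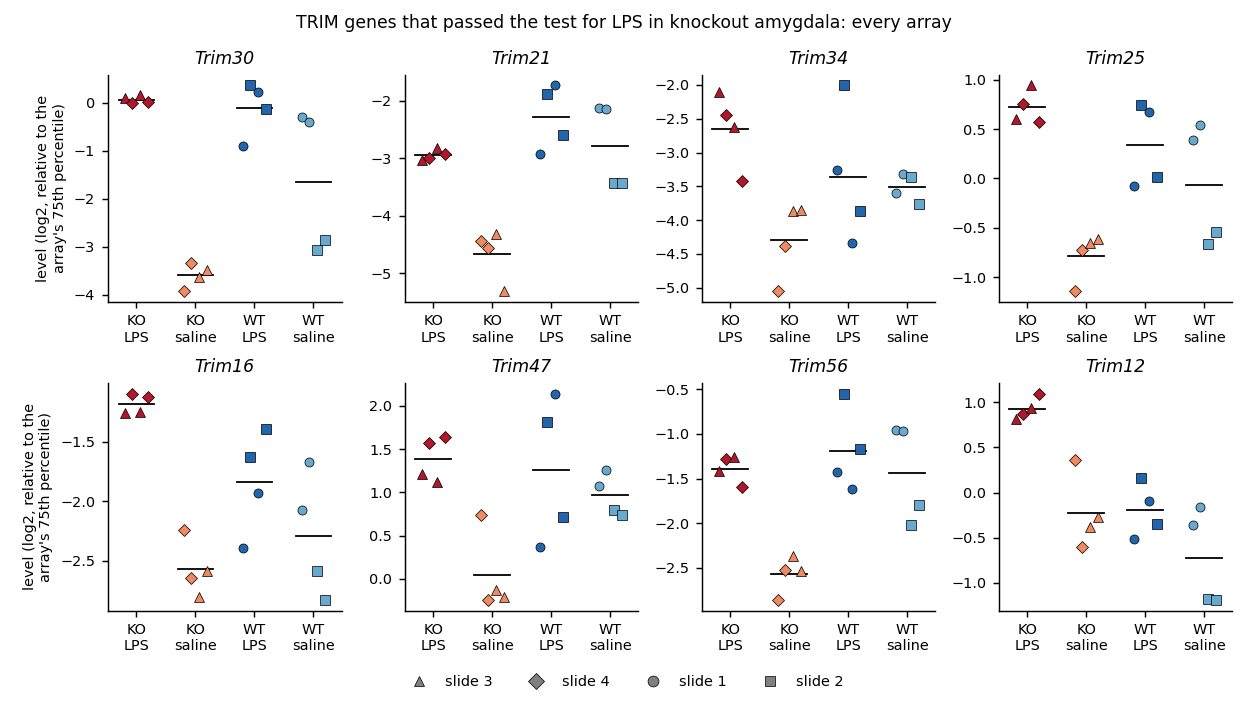
Level of each of the 8 TRIM genes on every array (log2, relative to the array's 75th percentile), by group, with the marker shape giving the slide and the bar the group mean. KO LPS arrays lie above all KO saline arrays in every panel, and WT saline arrays on slide 1 lie with the WT LPS arrays for Trim30.

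The calls differed in how far they rested on single arrays. Trim30, Trim16, Trim25 and Trim21 kept theirs when any 1 KO array was left out. Trim34 lost its call without any 1 of KO saline arrays 1 to 4 or KO LPS arrays 1 to 3, or without WT LPS array 1, with adjusted p-values up to 0.14. Trim47 lost its call without KO saline array 2, 3 or 4 or any 1 KO LPS array, with adjusted p-values up to 0.12. Trim12 lost its call without KO saline array 2 or 3 or KO LPS array 3 (adjusted p up to 0.066), and Trim56 without KO LPS array 2 or 3 (adjusted p up to 0.061). Since the KO groups did not overlap for any of the 8, their differences within slide 3 and within slide 4 had to be positive. Those of Trim30 were 3.68 and 3.64, and within slide 4 only Trim30 passed. After normexp background correction Trim21 (0.71, adjusted p = 0.11) and Trim34 (0.69, adjusted p = 0.12) no longer passed, and Trim30 stood at 2.41.

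The remaining interferon-linked members did not pass. Trim26, which has 2 ISRE cores in its promoter window, differed by 0.24 ± 0.22 (adjusted p = 0.65), and Trim6, next to Trim34 on chromosome 7, was well above background on no KO array. Trim62, a RING ligase, was higher on all 4 KO LPS arrays (mean −0.19 ± 0.13, SD) than on any KO saline array (mean −0.75 ± 0.26, SD), with a difference of 0.56 ± 0.17 (adjusted p = 0.089). Trim59 had 2 kept probes: the brighter differed by −0.97 ± 0.61 (adjusted p = 0.50), and the other fell by 1.27 (adjusted p = 0.031). Groups did not overlap for 9 members that were higher on KO LPS arrays (5.15% of all genes) and for 2 that were lower, Trim44 and Trim59 (6.18% of all genes).

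None of the 9 members studied in neurons or the developing brain passed the test after LPS in KO, with a median difference of −0.08. Of all genes 2.53% were called higher and 1.14% lower. The lack of calls in so small a group, or in the smaller TIF1 and muscle groups, therefore says nothing particular of it. Trim9, a brain-enriched ligase of growing axons, averaged 5.10 ± 0.08 on KO LPS arrays and 5.16 ± 0.11 on KO saline arrays (SD, n = 4 each), with overlapping ranges. Trim2, a ligase for neurofilament light chain, differed by 0.07 ± 0.24, and Trim3, which acts on the postsynaptic scaffold, by −0.43 ± 0.31. Trim32, known from neural progenitors and from muscle, differed by −0.24 ± 0.17, and Trim44 by −0.29 ± 0.13. The adjusted p-values of these 5 lay between 0.30 and 0.93. Of the 4 TIF1 members, which join chromatin to co-repressors, none passed: Trim24 differed by 0.09 ± 0.14, Trim33, a ligase for Smad4, by −0.14 ± 0.67, Trim66 by −0.10 ± 0.18, and Trim28, the co-repressor of KRAB zinc-finger proteins, by −0.49 ± 0.21 (adjusted p = 0.29). None of the 3 muscle members passed, with differences of −0.70 for Trim54, −0.63 for Trim63 and 0.32 for Trim55. Apart from Trim16 and Trim47, the 16 members outside these groups lay between −0.97 (Trim59) and 0.73 (Trim23).

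In WT amygdala no TRIM member passed the test after LPS, where 0.0105% of all genes did (2 of 19108), and 1 of 42 members had an unadjusted p under 0.05, as did 1266 of 19108 genes. Trim30 read −0.91, 0.38, 0.22 and −0.12 on WT LPS arrays, against −0.29, −0.41, −3.07 and −2.85 on WT saline arrays. The 2 WT saline arrays on slide 1 lay among the WT LPS arrays, and the 2 on slide 2 lay far below all of them. The difference was 1.55 ± 0.52 (adjusted p = 0.61). Within slide 1 it was 0.0045, and within slide 2 it was 3.09 (limma on 2 arrays a group, adjusted p = 0.020).

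The same arrays set the values of other members. Trim25 read −0.08, 0.75, 0.67 and 0.016 on WT LPS arrays, against 0.39, 0.54, −0.66 and −0.54 on WT saline arrays. Trim21 read −2.93, −1.88, −1.73 and −2.60 on WT LPS arrays, against −2.14, −2.15, −3.44 and −3.43 on WT saline arrays. Trim56 read −1.42, −0.55, −1.62 and −1.17 on WT LPS arrays, against −0.96, −0.97, −2.02 and −1.79 on WT saline arrays. In all 3 genes WT saline arrays 1 and 2 overlapped the LPS range and arrays 3 and 4 lay below every WT LPS array. Trim12 and Trim16 showed the same order, and Trim34 and Trim47 did not, since WT LPS arrays fell on both sides of their WT saline arrays. The differences were 0.52 ± 0.26 for Trim12, 0.51 ± 0.34 for Trim21, 0.45 ± 0.25 for Trim16, 0.41 ± 0.28 for Trim25, 0.29 ± 0.34 for Trim47, 0.25 ± 0.26 for Trim56 and 0.14 ± 0.42 for Trim34. Among all 42 members only Trim68 had WT groups that did not overlap, at −1.10 to −0.48 on WT LPS arrays against −2.32 to −1.32 on WT saline arrays; 4.80% of all genes had none.

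Without WT saline arrays 1 and 2, Trim30 rose after LPS in WT by 2.85 ± 0.29 (adjusted p = 6.8e-05) and was the 1 member of 42 called, where 1.93% of all genes were called higher and 1.27% lower. These 2 arrays were left out after seeing that interferon-linked genes read high on them, as Trim30 did. For such genes the p-values without them are therefore a description and no independent test. Trim12 (0.99, adjusted p = 0.053), Trim25 (0.94, adjusted p = 0.067), Trim21 (1.15) and Trim16 (0.87) came near the threshold, and so did Trim59 on the lower side (−1.60, adjusted p = 0.064). With KO saline array 1 left out as well, also a choice made after seeing the data, Trim30, Trim12, Trim25 and Trim16 rose in WT (3.17% of all genes higher) and Trim36 and Trim59 fell (3.23% lower). Which of these values stands for saline-treated WT mice was not tested.

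**Figure D3:**
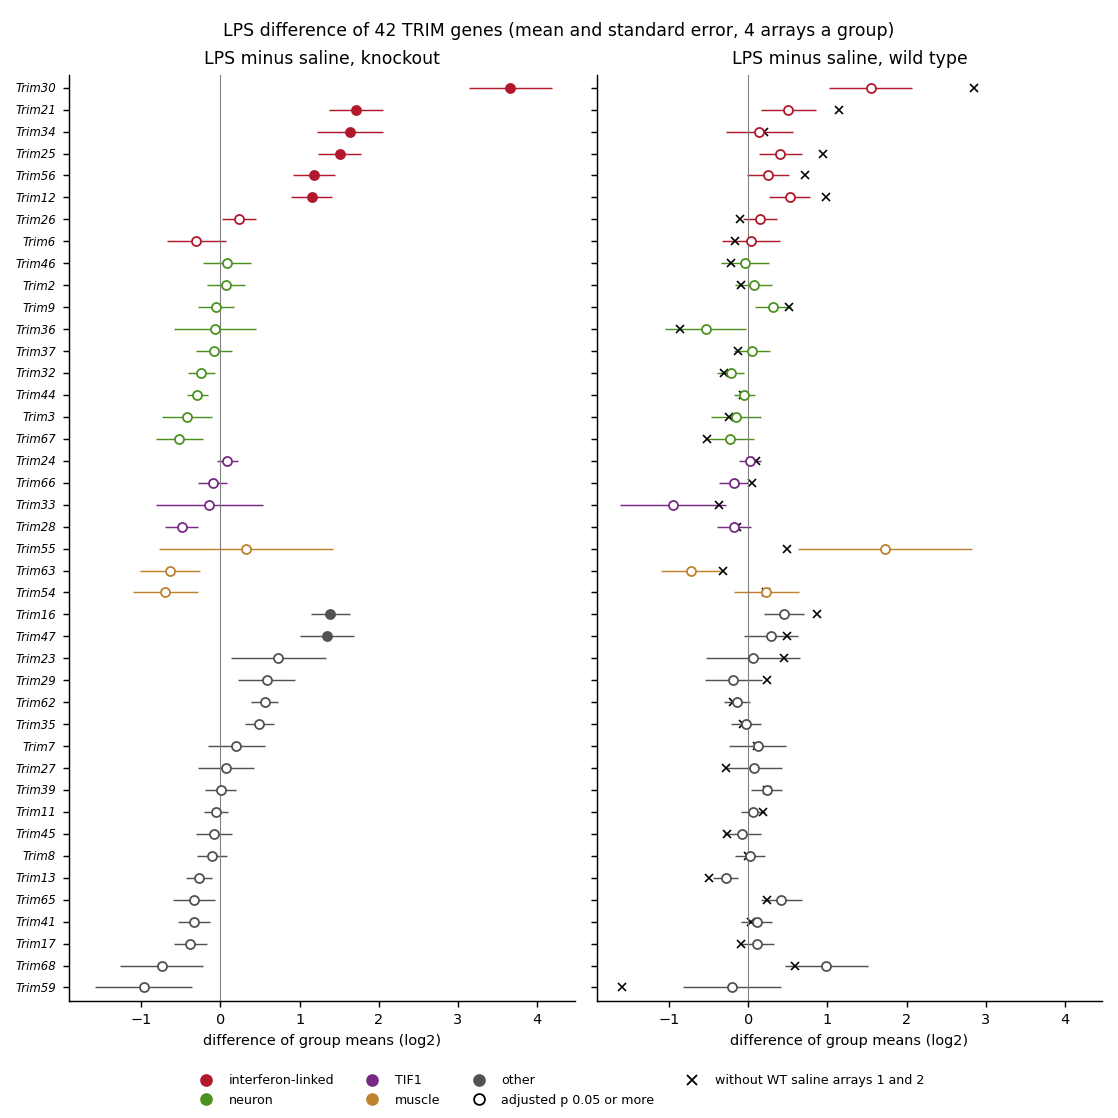
Difference between LPS and saline group means (log2, with standard error) for all 42 TRIM genes in KO (left) and WT (right), grouped by role, with filled circles for adjusted p under 0.05 and crosses for WT without saline arrays 1 and 2. In KO the filled circles are the 8 risers, from 1.15 for Trim12 to 3.66 for Trim30, and no circle is filled in WT.

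The difference of the LPS response between genotypes, KO minus WT, passed the test for no member, where 0.0105% of all genes passed (2 of 19108), and 9 of 42 members had an unadjusted p under 0.05, as did 1323 of 19108 genes. For Trim30 it was 2.12 ± 0.74 (adjusted p = 0.51), with responses of 3.66 in KO and 1.55 in WT. For Trim34 it was 1.50 ± 0.60, for Trim21 1.21 ± 0.49 and for Trim25 1.10 ± 0.39, with adjusted p-values from 0.54 to 0.63. Without WT saline arrays 1 and 2 the value was 0.81 for Trim30, 0.56 for Trim21, 0.56 for Trim25 and 1.44 for Trim34. A response that passed in KO and not in WT is therefore not shown to differ between the genotypes.

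TRIM relatives that the array lists under other names were read beside these members. Trim30d, listed as AI451617, rose after LPS in KO by 3.77 (adjusted p = 0.0044), and Trim30b, listed as A530023O14Rik, by 2.63 (adjusted p = 0.045). Trim12c, listed as 9230105E10Rik, differed by 0.90 in KO (adjusted p = 0.27) and by 1.26 in WT (adjusted p = 0.57). Of 9 measured TRIM proteins with names outside the Trim series, 1 rose after LPS in KO (2.53% of all genes) and none fell (1.14%). It was Mefv, which encodes pyrin, a sensor that assembles an inflammasome. Mefv read −4.17, −3.63, −3.93 and −3.47 on KO LPS arrays, against −6.75, −7.24, −6.27 and −6.59 on KO saline arrays, a difference of 2.91 (adjusted p = 0.017). On KO saline arrays it was as dim as spots not well above background, such as those of Trim6 (−6.84 to −5.51). The rise of Mefv is therefore a description and no test, and its size is uncertain. The groups were apart and WT saline arrays 1 and 2 (−4.70 and −4.45) again stood above WT saline arrays 3 and 4 (−7.80 and −7.72). Pml, the scaffold of nuclear bodies, differed by 0.39 in KO (adjusted p = 0.43).

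The RIG-I-like receptor and interferon pathway in which several TRIM ligases act moved with them. Of its 21 measured genes, 9 rose after LPS in KO (2.53% of all genes) and none fell (1.14%). Their median difference was 1.05 over all 21, and none passed in WT, where 0.0105% of all genes did. The ubiquitin-like protein Isg15 rose by 4.04, its protease Usp18 by 3.83 and the transcription factor Irf7 by 3.77. The RNA sensor Ifih1 (MDA5) rose by 2.69 and its relative Dhx58 (LGP2) by 2.37. Ddx58, which encodes RIG-I, the substrate of Trim25, differed by 1.99 (adjusted p = 0.066). Irf1, Irf9, Stat2 and the kinase Ikbke also rose, by 2.41, 1.39, 1.07 and 1.68, whereas Traf6 (0.12), Tbk1 (0.68) and Irf3 (−0.32) did not pass. Ikbke, counted among the 9, was dim: it read −5.84 to −4.90 on KO LPS arrays and −7.44 to −6.33 on KO saline arrays. The KO saline values are as low as those of Trim6 spots not well above background, so the size of its rise is uncertain. Of 13 measured ubiquitin-conjugating enzymes that serve RING ligases, none passed after LPS in either genotype. Of all genes 2.53% rose and 1.14% fell in KO, and 0.0105% passed in WT, so this says nothing particular of the 13.

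Few markers of blood-borne or microglial cells passed the test after LPS in KO, where 2.53% of all genes rose and 1.14% fell. The 6 measured neutrophil and monocyte markers averaged −0.54 to 0.73 on KO LPS arrays and −1.69 to −0.78 on KO saline arrays, and Plac8 was the 1 that rose (3.74). The 8 microglial markers averaged −0.84 to −0.53 on KO LPS arrays and −0.16 to 0.54 on KO saline arrays, and Gpr34 was the 1 that fell (−4.00). The neutrophil and monocyte average was −0.42 and −0.46 on WT saline arrays 1 and 2, against −2.87 and −2.40 on arrays 3 and 4, as for Trim30. Ccr2 was not above background on enough arrays to be read. In bulk tissue more cells of a type and more RNA per cell cannot be told apart, and the part of these cells in the TRIM values was not tested.

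Between genotypes, 13 of 42 members passed the test in the same direction after both treatments, where 37.4% of all genes did: 6 were higher in KO and 7 lower. After LPS 9 members were higher in KO (26.0% of all genes) and 9 lower (21.1%). After saline 7 were higher in KO (28.7% of all genes) and 14 lower (22.2%). The count over both treatments is near the share of all genes and so says nothing particular of the family. The genotypes did not overlap for 8 members higher in KO and 10 lower, after LPS and again after saline. Of all 19108 genes, 5426 were so apart and higher and 4500 lower after LPS, and 4961 and 3854 after saline. Genotypes that do not overlap are thus common here and set no member apart from other genes. The median difference over the 42 members was −0.20 after LPS, against 0.06 over all genes, and −0.29 after saline, against 0.07. Members called in 1 treatment only numbered 5 after LPS (Trim12, Trim16, Trim41, Trim62 and Trim65) and 8 after saline (Trim21, Trim25, Trim26, Trim30, Trim39, Trim47, Trim56 and Trim63). Markers of neighbouring regions differed too: of 7 measured hippocampal markers 4 were lower in KO after LPS and 5 after saline, and of 7 striatal markers 2 and 4, with none higher. Oligodendrocyte markers were lower in KO for 6 of 7 genes after LPS, with 1 higher, and for 5 of 7 after saline, with median differences of −1.76 and −1.54. Neuron markers were higher for 4 of 5 genes after LPS and 3 of 5 after saline, with medians of 1.11 and 0.93. The part of these tissue markers in the TRIM differences was not tested. The member counts include Trim29, higher in both treatments, and Trim63, lower after saline, which met the rule through the arrays of 1 genotype only.

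Trim55 and Trim54, both known from striated muscle, had the largest mean differences over both treatments, though after LPS that of Trim29 exceeded Trim54. Trim55 (MuRF2), a sarcomeric RING ligase, read 2.64, 3.33, 1.26 and 2.57 on KO LPS arrays, against −3.93, 0.90, −2.65 and 1.59 on WT LPS arrays. After saline it read 3.63, 2.40, 2.20 and 0.27 in KO, against −4.21, −3.77, −0.65 and −2.38 in WT. WT arrays were widely scattered, and 1 WT LPS array lay above the lowest KO LPS array. The differences were 3.47 ± 1.10 after LPS (adjusted p = 0.017) and 4.88 ± 1.10 after saline (adjusted p = 0.0020). The Trim55 call after LPS was lost without WT LPS array 1 (2.50, adjusted p = 0.066) or WT LPS array 3 (2.93, adjusted p = 0.057), and that after saline without WT saline arrays 1 and 2 and KO saline array 1 together (3.14, adjusted p = 0.091). Trim54 (MuRF3), its relative on muscle microtubules, read 1.58, 1.70, 1.59 and 2.26 on KO LPS arrays, against 0.24, −0.00016, 0.86 and −1.23 on WT LPS arrays. After saline it read 3.48, 1.93, 2.09 and 2.43 in KO, against 0.33, −0.86, −0.05 and −0.46 in WT. The genotypes did not overlap, and differed by 1.82 ± 0.41 after LPS (adjusted p = 0.0022) and 2.74 ± 0.41 after saline (adjusted p = 8.6e-05).

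Trim63 (MuRF1), the third of these ligases, did not share that direction. It was well above background on no KO array, on 3 of 4 WT LPS arrays and on all 4 WT saline arrays, and at least 1.52-fold lower in KO after saline. It met the rule through the WT groups alone, so this is a description and no test. After saline its measured level averaged −5.30 ± 0.39 in KO and −4.30 ± 0.57 in WT (SD, n = 4 each), and without WT saline arrays 1 and 2 the difference was −0.60. Markers of striated muscle moved with Trim54 and Trim55. Of 8 measured, 6 were higher in KO after each treatment (26.0% of all genes after LPS, 28.7% after saline) and none lower (21.1% and 22.2%). Their average was −2.04 to −1.62 on KO LPS arrays and −3.04 to −2.59 on WT LPS arrays, and −1.86 to −1.29 on KO saline arrays and −2.74 to −2.60 on WT saline arrays. Ttn, the titin gene, was higher by 1.54 after LPS and 0.88 after saline, Mb, myoglobin, differed by −0.21 and −0.014, and Ckm and Tnnt3 were not above background on enough arrays to be read. The part of muscle RNA in the Trim54 and Trim55 values was not tested.

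Trim23, which joins a RING finger to an ARF GTPase domain, was lower in KO. It read −1.07, −1.64, −1.43 and −2.25 on KO LPS arrays, against 0.26, −0.18, 0.57 and 0.24 on WT LPS arrays, and −4.92, −1.75, −1.35 and −1.28 on KO saline arrays, against 0.57, 0.52, −0.31 and −0.14 on WT saline arrays. KO saline array 1 stood far below its group and was not well above background, and the genotypes did not overlap with or without it. The differences were −1.82 ± 0.60 after LPS (adjusted p = 0.021) and −2.48 ± 0.60 after saline (adjusted p = 0.0031). Without KO saline array 1 the saline difference was −1.62 (adjusted p = 0.00045). The LPS call was lost without WT LPS array 3 or KO LPS array 4 (adjusted p up to 0.064). Trim46, which bundles microtubules in the proximal axon, read −1.84, −1.66, −1.58 and −2.27 on KO LPS arrays, against −0.22, −0.41, −0.17 and −0.0039 on WT LPS arrays. After saline it read −1.06, −2.18, −1.53 and −2.89 in KO, against −0.25, −0.43, −0.08 and 0.12 in WT. All KO arrays were lower, with differences of −1.63 ± 0.30 after LPS (adjusted p = 0.00049) and −1.76 ± 0.30 after saline (adjusted p = 0.00026).

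Trim29, a member without a RING finger that is known from epithelia, averaged −4.00 ± 0.56 on KO LPS arrays and −6.14 ± 0.38 on WT LPS arrays (SD, n = 4 each). After saline it averaged −4.58 ± 0.71 in KO and −5.96 ± 0.50 in WT. Only 1 of 4 spots was well above background in either WT group and 2 of 4 in KO saline, so it met the rule through KO LPS alone, and its differences of 2.15 after LPS and 1.38 after saline are a description and no test. With normexp background correction they were 0.39 and 0.21. Trim66, the TIF1 member known from testis, was higher in KO by 0.92 ± 0.18 after LPS and 0.84 ± 0.18 after saline, and Trim24, a TIF1 co-regulator of nuclear receptors, was lower, with differences of −0.59 ± 0.14 and −0.66 ± 0.14. Trim35 differed by −0.47 ± 0.19 after LPS and −0.99 ± 0.19 after saline, and Trim32 by −0.51 ± 0.17 and −0.50 ± 0.17. Adjusted p-values of Trim66, Trim24, Trim35 and Trim32 lay between 0.00085 and 0.0496, and Trim13 was called lower in both as well. With slide as a random effect, Trim35, Trim32 and Trim13 no longer passed after LPS (adjusted p = 0.10, 0.055 and 0.059), nor did Trim32 after saline (adjusted p = 0.059).

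For some members the direction depended on the probe. Of 23 members with 2 or more kept probes, 5 had probes called in opposite directions after LPS (Trim8, Trim9, Trim16, Trim37 and Trim39), where 13.8% of all such genes did. After saline 4 had them (all of these but Trim16), where 14.9% of all such genes did. Trim37, a ligase of peroxisomes and centrosomes, differed by 1.03 after LPS and 1.16 after saline with its brightest probe. Its other 2 kept probes gave −1.64 and −1.22 after LPS and −1.80 and −1.43 after saline. Trim9 differed by −0.96 and −0.60 with its brightest probe and by 1.03 and 1.16 with the other. Trim8, which acts on cytokine signalling, differed by 0.86 and 0.98 with one probe and −0.83 and −0.70 with the other. A genotype direction for these 3 genes is therefore uncertain. Other kept probes of Trim32, Trim24 and Trim41 lay at 0.52, 0.34 and 0.26 after LPS, on the other side of 0 from the probe used, and none of them passed. After LPS in KO no member had probes called in opposite directions. Few could have, since only 2.53% of all genes were called higher there and 1.14% lower. By sign alone, all probes pointed the same way in 16 of the 23 members after LPS in KO. They also did so in 16 after LPS in WT, where no member was called. Between genotypes they did so in 9 after LPS and in 10 after saline.

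**Figure D4:**
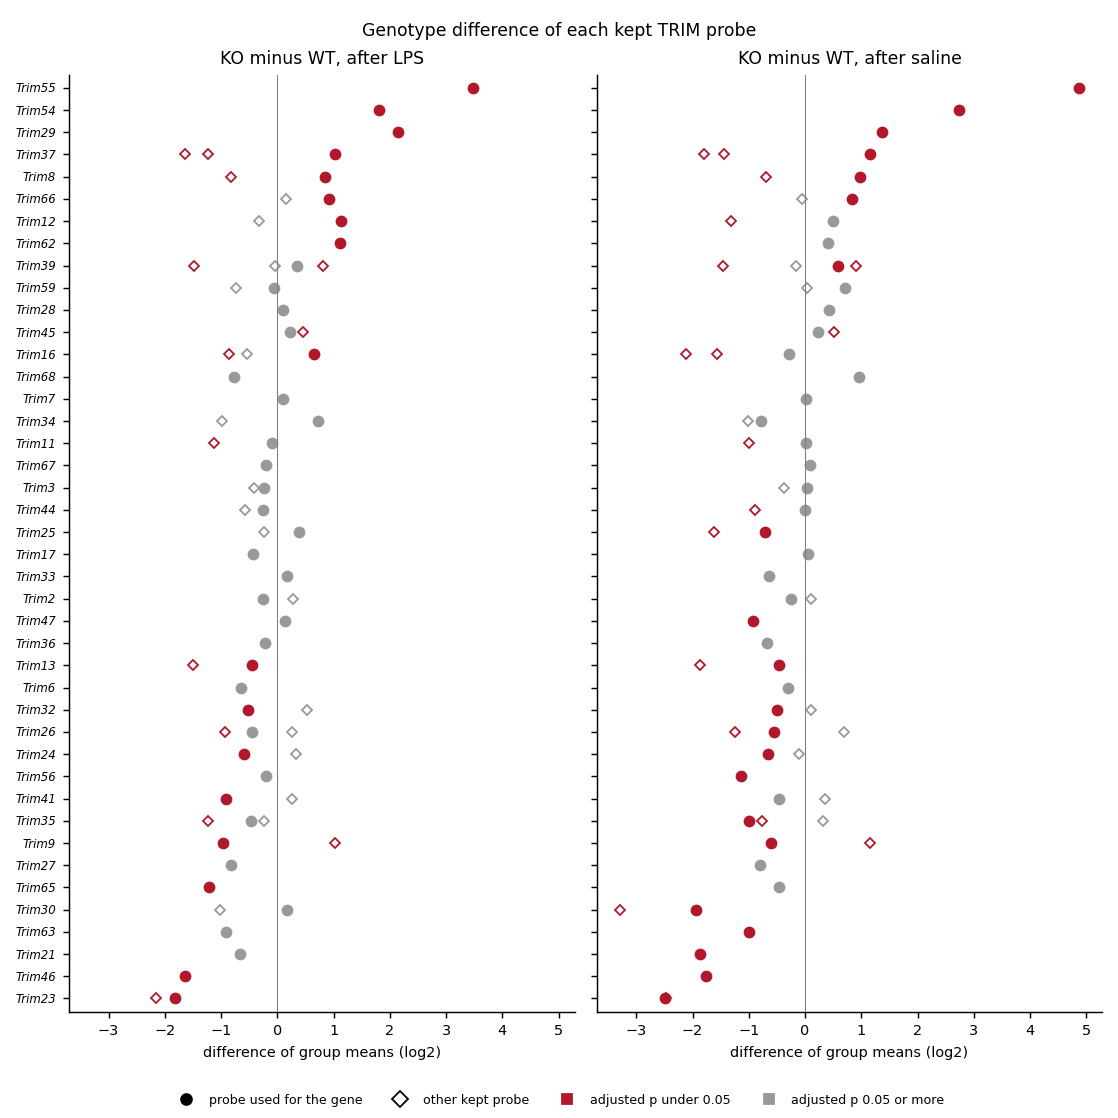
Difference between KO and WT group means (log2) after LPS (left) and after saline (right) for every kept probe of the 42 TRIM genes, with circles for the probe used and diamonds for other kept probes, and red where the adjusted p over all 28347 kept probes is under 0.05. Trim55 lies farthest right in both panels, and red symbols lie on both sides of 0 for Trim37, Trim8 and Trim9.

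Of the 8 interferon-linked members, 5 were lower in KO after saline (22.2% of all genes) and none higher (28.7% of all genes). The 8 include Trim6, which was well above background on no KO array. Trim21 (−1.87 ± 0.34), Trim30 (−1.94 ± 0.52), Trim56 (−1.14 ± 0.26), Trim25 (−0.72 ± 0.28) and Trim26 (−0.55 ± 0.22) passed, with adjusted p-values between 0.00045 and 0.043. Without WT saline arrays 1 and 2, 3 of these no longer passed, with differences of −0.64 for Trim30 (adjusted p = 0.11), −0.18 for Trim25 (adjusted p = 0.61) and −0.67 for Trim56 (adjusted p = 0.062). Trim21 and Trim26 still passed, at −1.23 for Trim21 (adjusted p = 0.012) and −0.80 for Trim26 (adjusted p = 0.020), and Trim12 was then higher in KO by 0.96 (adjusted p = 0.011). Over all settings tried, Trim21 kept its saline call in 27 of 27. Trim26 kept its call in 12 of 28, lost it in 15 and changed sign in 1. With slide as a random effect, Trim25 and Trim26 no longer passed. After LPS, Trim12 was higher in KO by 1.13 ± 0.26 (adjusted p = 0.0024), at 0.82 to 1.10 on KO LPS arrays against −0.51 to 0.16 on WT LPS arrays, and the other 7 interferon-linked members did not pass. Its second probe gave −0.32 and did not pass (adjusted p = 0.52), so the direction in Trim12 depended on the probe. That comparison shares its KO LPS arrays with the LPS comparison in KO.

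The authors' deposited table of fold changes, limited to probes that changed at least 2-fold in 1 of 4 comparisons, lists 29 probes of 22 TRIM members. In the authors' deposited table Trim30 is 12.8-fold up after LPS in KO and 2.92-fold up in WT. Of the 29 probes, the authors' deposited table has 12 up and 1 down at least 2-fold after LPS in KO, and 3 up and none down in WT, with no spread between arrays given. Between genotypes the authors' deposited table has 6 up and 11 down in KO after LPS, and 4 up and 15 down after saline. These counts come from a list selected by fold change and are a description. The 10 symbols that did not meet the rule were Trim10, Trim14, Trim15, Trim31, Trim42, Trim50, Trim52, Trim60, Trim61 and Trim69, and of these Trim14 came nearest, on 2 of 4 arrays in both KO groups.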

How the data were processed

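Whole-amygdala RNA of the 4 groups was hybridised to 16 one-colour Agilent arrays on 4 slides, and group and replicate numbers come from the labels and the arrays' own names. The authors' deposited scanner files hold spot intensity made with Feature Extraction 9.5 by Agilent, per the submitters' processing notes, and background-subtracted and detrended per the file headers, with flags for spots well above background, saturated or outlying. Their deposited tables give fold ratios between group means; 32 columns of per-array calls in them were not used.

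Control spots were left out, outlying spots set missing (none in a member), and each array was scaled to its 75th percentile on the log2 scale. A probe was kept where it was well above background on at least 3 of 4 arrays of any group (28347 of 41174 probes, 71 of 96 TRIM probes), and a gene was read by its kept probe with the highest mean. One model with a mean per group was fitted to all 16 arrays with lmFit and eBayes in limma 3.58.1 (R 4.3.3), with Benjamini-Hochberg adjustment over 19108 genes, or over kept probes for single probes. The fit was tested on simulated data with planted changes. Figures were drawn with matplotlib 3.10.9 and numpy 2.4.6. A fold against a group in which a probe was never well above background was computed as a bound, taking for each of its arrays the higher of the probe's own signal and that of the dimmest probe still above background there.

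Members were accounted for as follows: array values for members called with LPS, values for the up to 12 members called between genotypes in both treatments with the largest mean change, 2 to 4 of the highest members of each role group, and further probes where they disagreed with a call. Members, role groups, lists and tests were chosen with earlier results of these data known. Alternatives covered scaling, quantile normalization, normexp (offset 50), probe filters, the mean of probes, slide and replicate blocks, single slides, probe base composition and leaving out arrays. Slide was a fixed term for the LPS differences. For the genotype differences it was a random effect, where arrays of the same slide are taken as correlated, since no slide held both genotypes. All 42 members matched a RefSeq gene. Between 58.1% and 71.9% of probes were well above background per array, the 75th percentile of intensity lay between 346 and 1165, and no 2 arrays held the same values.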

Additional observations from a re-analysis of the deposited data

Results flagged for a closer look

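In 14 of 168 sets of 4 arrays, 1 for each member and group, a single array lay apart from the other 3 by more than the critical value of Dixon's test. Chance marks about 1 in 20 sets. KO saline array 1 gave 6 of the 14. On it Trim68 read 1.53, against −1.67 to −1.28 on the other KO saline arrays, and Trim3 read 3.97, against 2.18 to 2.46. Trim41 read 1.50, against 0.63 to 0.71, and Trim47 0.74, against −0.25 to −0.13. On the low side Trim23 read −4.92, against −1.75 to −1.28, and Trim36 −6.50, against −3.71 to −3.24, with neither spot well above background on that array. KO saline array 2 was low for Trim27, at −3.79, against −2.93 to −2.77 on the others of its group.

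WT saline array 1 was high for Trim9, at 6.28, against 5.53 to 5.64 on the others of its group, and low for Trim27, at −3.20, against −2.10 to −1.93. For Trim6 it read −6.39, against −5.45 to −5.30, and that spot was not well above background. WT saline array 2 was high for Trim24, at 2.76, against 2.41 to 2.45, and low for Trim37, at 1.33, against 2.00 to 2.07. WT LPS array 4 was high for Trim37, at 2.10, against 1.83 to 1.87, and KO LPS array 2 was high for Trim45, at −0.40, against −0.61 to −0.57.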

How the results depend on the processing

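Of the LPS responses in KO, that of Trim30 passed in all 30 settings tried, with values between 2.41 and 3.75, while Trim34 failed in 14 of 29 and Trim47 in 11 of 30. The count of 8 members called with LPS in KO ranged from 4 to 8 when 1 array at a time was left out, the lowest without KO LPS array 3, and it was 1 within slide 4 alone, where each group has 2 arrays. Under the other settings it lay between 6 and 9. In WT the count of 0 stayed at 0 when any 1 array was left out, and was 1 within slide 2. It was 1 without WT saline arrays 1 and 2, and 6 with KO saline array 1 also left out. Both alternatives that leave out these arrays were chosen after seeing the data. The difference of the response between genotypes gave 0 calls in every setting run. Members called between genotypes numbered 12 to 23 after LPS and 15 to 26 after saline.

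With the mean of all kept probes in place of the brightest, genotype differences changed sign after LPS to −0.25 for Trim16, 0.0049 for Trim32, −0.61 for Trim37 and 0.034 for Trim9, and after saline to −0.49 for Trim11, −0.69 for Trim37, −0.034 for Trim39 and 0.28 for Trim9. With a correction for probe base composition they changed sign after LPS to −0.21 for Trim16 and −0.46 for Trim45, and after saline to −0.67 for Trim11, −0.42 for Trim17, 0.28 for Trim26, −0.56 for Trim45 and 0.27 for Trim9. The cause was not tested.

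Same-numbered arrays of different groups shared only a number: the correlations of their deviations from group means lay between −0.38 and 0.34. With the replicate number as a block, 6 members were called with LPS in KO, where Trim34 and Trim47 no longer passed, 0 in WT, 16 between genotypes after LPS and 20 after saline. With slide as a random effect, 14 members were called between genotypes after LPS and 15 after saline, against 18 and 21 without it. No slide held both genotypes, so this does not remove slide differences from the genotype values. Signal over background limits Trim6, Trim29 and Trim63, and 4 arrays a group limit the precision of all values.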
